A study of Mus musculus with 6 samples.

Results

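ATAC-seq peaks were described at the genes of the Id proteins, Id2 and Id3, and of the E proteins, Tcf3 (E2A), Tcf4 (E2-2) and Tcf12 (HEB). A peak belonged to a gene when its midpoint lay in the gene body, or lay between genes with that gene as the nearest protein-coding one within 100 kb, in RefSeq on mouse build mm10. By this rule the 5 genes, of 21900 in the table, held 24 of 38258 peaks in one list and 30 of 36182 in the other. The cells were regulatory T cells (Treg cells), a CD4 T cell lineage that restrains immune responses and depends on the transcription factor Foxp3. They were sorted as CD4+YFP+ cells from spleen and draining lymph nodes of C57BL/6 mice, and 100000 cells were lysed per sample. The first list stands for 3 samples of genotype Bcl11b w/w Foxp3-IRES-YFP-Cre (WT) and the second for 3 samples of genotype Bcl11b f/f Foxp3-IRES-YFP-Cre (KO). By the labels, both groups carry YFP and Cre in the Foxp3 gene, so Cre is driven where Foxp3 is expressed. The sources used here do not give the age of the mice, the deleted part of Bcl11b or whether the 3 samples were separate animals. Each group had 1 list for its 3 samples, with no read count, so the depth is unknown and no spread between replicates could be measured. No comparison below has a replicate check or a test. The comparison asks how loss of Bcl11b, a zinc-finger transcription factor of the T lineage, relates to open chromatin at these genes.

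E proteins are helix-loop-helix transcription factors that bind DNA as dimers at a short motif called the E-box. Id proteins carry the helix-loop-helix but lack the basic region that touches DNA, so they pair with E proteins and keep them off their sites. In the T lineage the balance between these families shapes early commitment, selection and the choice between conventional and innate-like fates, and Id2 and Id3 are both active in Treg cells.

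A peak is called shared where at least 1 bp of it was covered by the other list, and otherwise WT-only or KO-only. A peak that was not called in the other list was not shown to be closed there. In bulk samples, a site open in fewer cells and a site less open in each cell cannot be told apart. The deposited rows carry no peak height, and the order of the rows was used as an inferred rank: a position of 0% is the first row and 100% the last. Over the whole lists, 29.5% of WT peaks were WT-only and 25.4% of KO peaks were KO-only, and both shares rose along the list. In the first 10% of the rows they were 3.37% and 4.06%, and in the last 10% they were 70.7% and 55.1%. Of the markers of Treg cells, 3 of 4 (Il2ra, Ctla4 and Ikzf2) had a peak within 1 kb of a gene end in each list, and Foxp3 had 1 shared peak that lay farther from its ends. Such gene-end peaks were found at 0 of 3 B cell markers, 1 of 3 markers of NK and innate lymphoid cells, 1 of 3 myeloid markers and 1 of 2 CD8 T cell markers in each list. The part of other cells in the differences below was not tested.

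Sequences before a start site are shown for Id2 and Id3, whose start peaks reach into them, and for a stretch of Tcf12 where only the WT list had a peak. All are the 250 bases before a start listed by RefSeq (GRCm38.p6, the same coordinates as mm10), written 5′ to 3′ on the strand of the gene. At Id2 (chr12:25096093-25096342, minus strand) and Id3 (chr4:136143572-136143821, plus strand) the capitals mark the bases that lay in both the WT and the KO peak. At the start inside Tcf12 (chr9:71896097-71896346, minus strand) they mark the bases in a WT-only peak, a stretch chosen after its values were seen.
Id2: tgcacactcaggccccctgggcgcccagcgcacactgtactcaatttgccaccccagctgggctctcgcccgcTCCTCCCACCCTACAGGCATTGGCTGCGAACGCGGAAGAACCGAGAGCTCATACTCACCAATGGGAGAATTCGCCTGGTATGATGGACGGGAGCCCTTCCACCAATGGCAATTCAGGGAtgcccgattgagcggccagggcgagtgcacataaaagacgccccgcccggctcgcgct
Id3: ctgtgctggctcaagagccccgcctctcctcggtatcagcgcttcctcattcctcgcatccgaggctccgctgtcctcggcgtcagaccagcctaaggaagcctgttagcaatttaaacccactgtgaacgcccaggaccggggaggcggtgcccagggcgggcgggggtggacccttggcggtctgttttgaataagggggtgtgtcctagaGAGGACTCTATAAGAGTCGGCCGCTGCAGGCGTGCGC
Tcf12: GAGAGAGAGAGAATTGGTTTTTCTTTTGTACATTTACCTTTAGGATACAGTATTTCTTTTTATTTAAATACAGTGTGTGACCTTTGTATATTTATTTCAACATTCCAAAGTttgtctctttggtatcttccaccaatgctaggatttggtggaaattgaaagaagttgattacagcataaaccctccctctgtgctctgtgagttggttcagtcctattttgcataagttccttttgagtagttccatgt

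The Id2 stretch held 1 match to CAGCTG, a palindromic E-box, which began 196 bases before the start, and no other match to the general E-box CANNTG. It lay inside the WT peak and 13 bp outside the KO peak, and therefore in lower case above. All peaks of the 5 genes have 1 width per list, 219 bp for WT and 193 bp for KO, as do all but 9 WT and 6 KO peaks of the whole lists, so their edges follow from where the centre was placed and do not mark the edge of open chromatin. Of all 32851 RefSeq promoter windows of 300 bases (250 before and 50 after the start), 16.3% held CAGCTG and 72.3% held CANNTG. The Id2 window also held 3 matches to CCAAT on either strand, which 37.4% of windows held at least once, and all 3 lay in both peaks. Its 1 match to GGGCGG, 16 bases before the start, lay inside the KO peak and 42 bp outside the WT peak. The Id3 window had no CANNTG match and 2 GGGCGG matches that overlap each other, a motif found in 35.7% of windows. The Tcf12 stretch shown had a CCAAT match on the reverse strand inside the WT-only peak, and its first bases are a GA repeat. Tcf3, whose listed start lies inside the longer gene model, had 1 CCGGAA match (the core of ETS factor sites, in 14.9% of windows), and it lay in both the WT and the KO peak. Matches were searched on both strands of the windows of Id2, Id3, Tcf3 and Tcf12. The E-box form CAGGTG had none there, nor did the form CACGTG, the RUNX core TGTGGT or the STAT form TTCNNNGAA, which says only that these letters are not in these windows. Besides Id2, CAGCTG had 1 match, 240 bases before the outer Tcf12 start, and CANNTG also matched in the Tcf3 window and in all Tcf12 windows. None of these lay in a peak of either list. The AP-1 form TGANTCA had 1 match, in the window of the middle Tcf12 start, and no peak of either list held it.

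Across the 5 genes, 17 peaks were shared, 7 were WT-only and 13 were KO-only. The KO-only peaks were 43.3% of the KO peaks at these genes (exact Clopper-Pearson 95% interval 25.5 to 62.6%), against 25.4% in the whole list. The WT-only peaks were 29.2% (12.6 to 51.1%), against 29.5%. These intervals cover counting error only, and peaks of 1 gene are not independent. The KO interval starts just above the share of the whole list, and without Id2 the share was 42.9% (21.8 to 66.0%), an interval that includes it. Read against their own places in the lists cut into 10 equal blocks of rows, the blocks that held the members' KO peaks had a mean KO-only share of 24.6%, and those that held their WT peaks had a mean WT-only share of 28.7%. KO-only peaks were more numerous at Id2 (4 against 0) and Tcf4 (5 against 2), the numbers were equal at Id3 and Tcf3, and Tcf12 had 1 more WT-only than KO-only peak, a difference of 0 in the first 50% of each list. Among all 14664 genes with a peak, 20.2% had more KO-only and 26.8% more WT-only peaks.

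**Figure D1:**
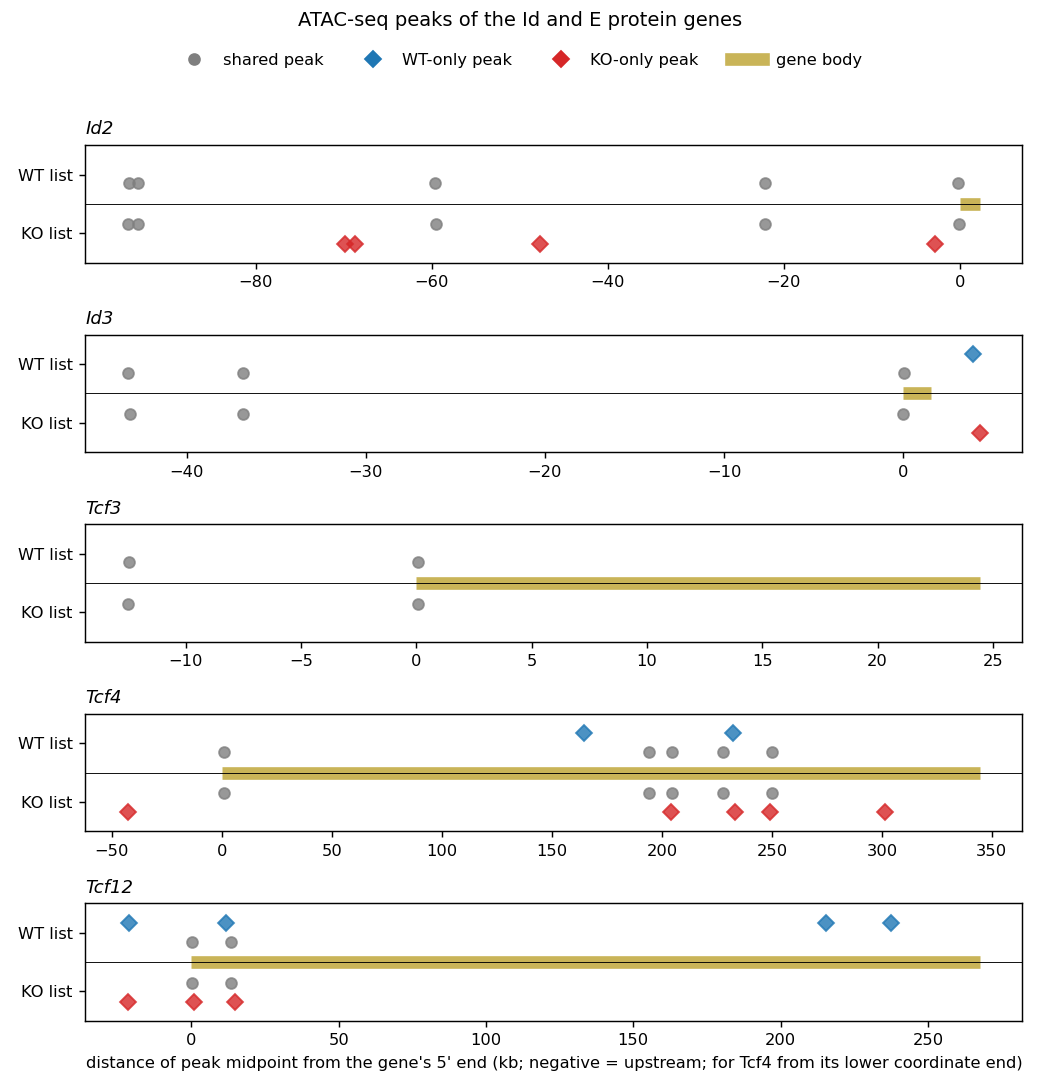
Peaks of the 5 genes by distance of the midpoint from the 5′ end of the gene (for Tcf4 from its lower coordinate end) in kb, one panel per gene, with WT list peaks above and KO list peaks below the line. Grey circles are shared peaks, blue diamonds WT-only and red diamonds KO-only peaks; Id2 has 4 KO-only and no WT-only peaks, and Tcf3 has 2 shared peaks and no other.

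Id2, which restrains E proteins and is needed for NK and innate lymphoid cells, spans chromosome 12 from 25093799 to 25096092 on the minus strand. All of its peaks lay upstream, in the stretch of 1211 kb that separates it from Rnf144a. It had 5 shared peaks and 4 that were KO-only, and no WT-only peak. At least 4 KO-only and no WT-only peaks were found at 0.252% of genes with a peak (37 of 14664). Id2 had been picked with this count known, so its rarity is a description.

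The KO-only peak nearest to Id2 stood at 25098754 to 25098946, 2.76 kb upstream, at position 34.2% of the KO list, in a block of rows of which 18.0% were KO-only. The next stood 47.7 kb upstream (25143659 to 25143851) at position 46.1%. The other two stood 68.8 kb (25164763 to 25164955) and 69.8 kb upstream (25165830 to 25166022), with midpoints 1067 bp apart, at positions 52.5% and 49.8%. The last 3 lay inside the noncoding gene Gm36287. All 4 thus stood near the middle of the list, while the median KO-only peak stood at 72.3%. Their gaps to the nearest WT peak were 2384, 11763, 8929 and 9996 bp, the first below and the others above the median of 4439 bp over all KO-only peaks. None lay within 1 kb of one, as 34.2% of all KO-only peaks did.

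The shared peaks of Id2 kept their place in some cases and not in others. The peak at its start stood at position 5.32% in the WT list (25096151 to 25096369) and 10.5% in the KO list (25096077 to 25096269), with midpoints 87 bp apart. Midpoints at least 75 bp apart were found at 5 of the 17 pairs of the 5 genes and at 20.4% of all shared pairs, a size chosen after the values were seen. The peak 22.1 kb upstream stood at 65.9% in WT and 97.0% in KO, which puts it at the end of the KO list. The peak 59.6 kb upstream stood at 51.1% and 52.9%, and the one 93.4 kb upstream at 17.8% and 17.2%. The peak 94.5 kb upstream moved the other way, from 37.3% in WT to 12.6% in KO. Over all shared pairs the median absolute difference was 7.53 percentage points. Pairs at least 20 points earlier in the KO list were 5.68% of the total, and pairs at least 20 points later were 10.7%. Of the 17 pairs of the 5 genes, 1 was that much earlier and 1 that much later, and both belong to Id2.

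**Figure D2:**
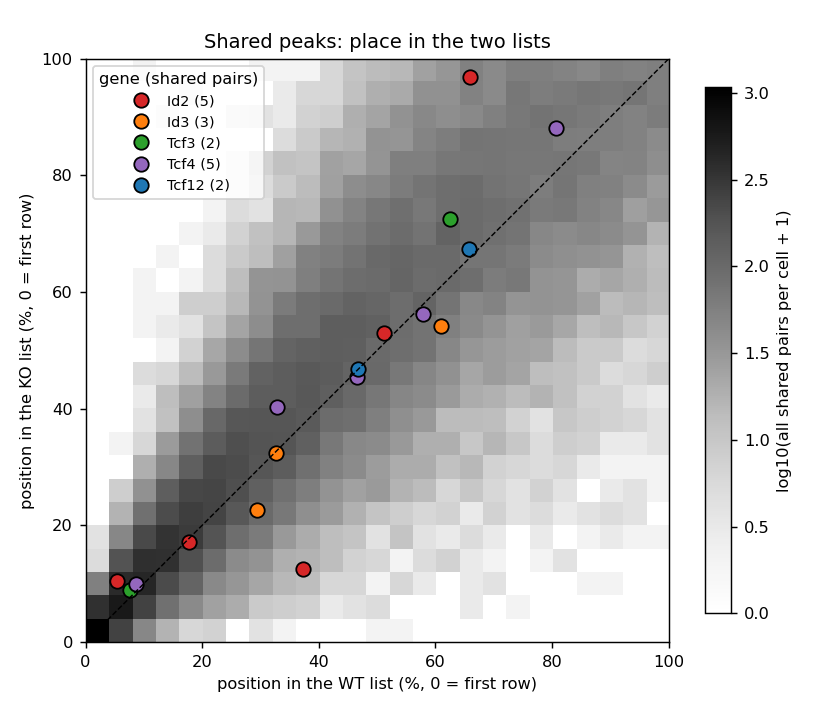
Position of each shared peak of the 5 genes in the WT list (x axis) and in the KO list (y axis), in % of rows, over a grey grid of all shared pairs (log10 of pairs per cell + 1). The Id2 peak at 37.3% in WT and 12.6% in KO lies below the dashed line of equal position, the Id2 peak at 65.9% and 97.0% lies above it, and 14 of the 17 pairs are within 10 points of the line.

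The limit of 100 kb set the count at Id2. Between 100 kb and the farthest peak for which Id2 was still the nearest gene, at 343 kb, lay 9 shared peaks, 4 KO-only ones and 6 WT-only ones. Over the whole stretch Id2 therefore had 8 peaks that were KO-only, 6 that were WT-only and 14 shared ones. The first peaks outside the limit were a shared one at 113 kb and a WT-only and a KO-only peak 121 kb upstream that were 7 bp apart. Of the 14 shared peaks, 5 stood at least 20 points earlier in the KO list, against 5.68% of all shared pairs. The number that stood that much later was 1, against 10.7% of all shared pairs. The far ones of the 5 earlier peaks were at 113 kb (position 54.8% in WT, 23.2% in KO), 144 kb (56.7% and 22.9%), 159 kb (88.7% and 64.4%) and 343 kb (69.7% and 19.5%). In the same stretch, the shared peaks at 172 kb (55.3% and 71.8%) and 264 kb (58.3% and 72.6%) were later in KO. The median change over all 14 was -1.15 points, against 2.59 over all shared pairs of the lists. These peaks lie outside the rule, the size of 20 points was chosen after the values were seen, and a nearest gene is not shown to be the gene a site acts on.

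**Figure D3:**
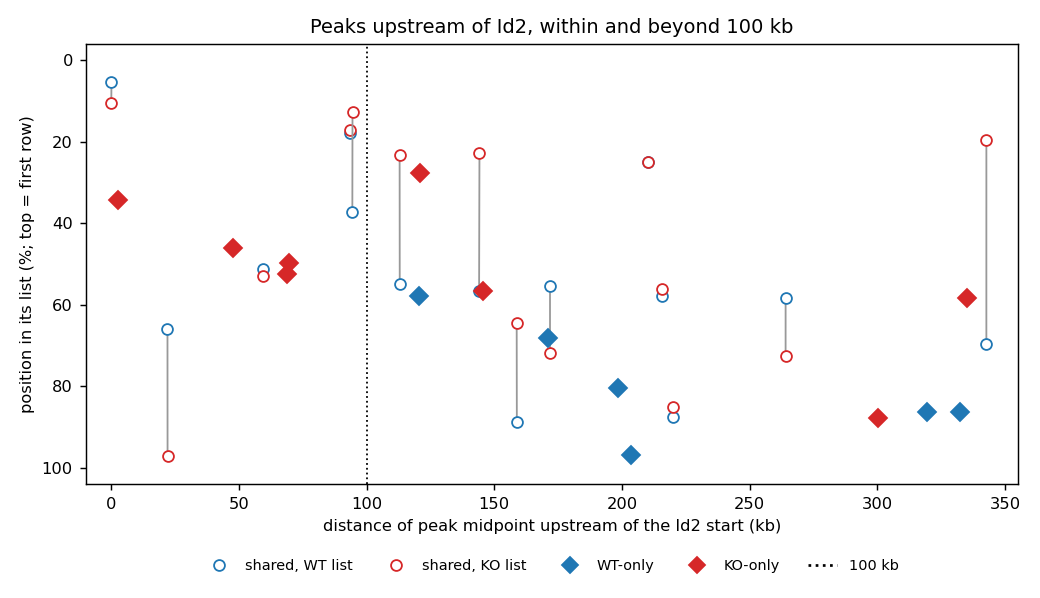
Peaks upstream of Id2 by distance of the midpoint from the start in kb (x axis) and position in their list in % (y axis, first rows at the top), with a grey line joining the WT and KO peak of each shared pair. Left of the dotted line at 100 kb lie 4 KO-only peaks and no WT-only peak, and right of it lie 4 KO-only and 6 WT-only peaks.

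Id3, the other Id protein gene, is induced by signals through the T cell receptor. It spans chromosome 4 from 136143822 to 136145392 on the plus strand. Its peaks were 3 shared ones, 1 that was WT-only and 1 that was KO-only. The shared peak at its start stood at 32.7% of the WT list and 32.4% of the KO list. The shared peaks 36.9 kb and 43.3 kb upstream stood at 29.5% and 61.0% in WT, and at 22.7% and 54.2% in KO, each about 7 points earlier. Downstream of the gene, the WT-only peak (136147617 to 136147835, position 41.0%) and the KO-only peak (136148004 to 136148196, position 47.9%) were 168 bp apart. With peaks within 500 bp counted as shared, Id3 had no genotype-specific peak. A pair of this kind was also present upstream of Id2, 7 bp apart and just outside its 100 kb.

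Tcf3, which encodes the E12 and E47 proteins, spans chromosome 10 from 80409541 to 80433976 on the minus strand and had 2 shared peaks and no other. The peak at its 5′ end stood at 7.71% of the WT list (80433819 to 80434037) and 8.91% of the KO list (80433802 to 80433994). The peak 12.5 kb upstream stood at 62.5% and 72.5%. Of genes with at least 2 peaks, 21.6% likewise had no genotype-specific one.

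Tcf4, the E protein gene best known from plasmacytoid dendritic cells, spans chromosome 18 from 69343429 to 69687967 and had 5 shared peaks, 2 that were WT-only and 5 that were KO-only. In a gene of 345 kb it held 7 WT and 9 KO peaks in its body, against a median of 2 in each list over the 638 genes of 200 to 400 kb. The shared peak near its lower end stood at 8.63% of the WT list (69344230 to 69344448) and 9.87% of the KO list. The other shared peaks stood between 32.8% and 80.7% in WT and between 40.3% and 88.1% in KO, and none moved by more than 7.48 points. Of the KO-only peaks, those at 69547255, 69576363 and 69592429 lay 492, 572 and 675 bp from a WT peak. The KO-only peak that stood earliest, 69644813 to 69645005 at 47.7%, lay 51297 bp from any WT peak, and the one at 69592429 stood next, at 64.6%. The remaining KO-only peak lay outside the gene, 42.7 kb below its lower end, at 97.3% of the list. The WT-only peaks were at 69575572 to 69575790 (position 68.4%), 572 bp from a KO-only peak, and at 69507917 to 69508135 (position 87.9%), 29513 bp from any KO peak. Beyond 100 kb, 2 further WT-only and no KO-only peaks had Tcf4 as the nearest gene, which gives 4 WT-only and 5 KO-only peaks with no limit on distance.

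Tcf12, whose HEB protein pairs with E2A proteins in thymocytes, spans chromosome 9 from 71844252 to 72111893 on the minus strand and had 2 shared peaks, 4 that were WT-only and 3 that were KO-only. The shared peak at its outer start stood at 46.8% of both lists (WT, 72111701 to 72111919), and the shared peak about 13 kb into the gene at 65.8% in WT and 67.4% in KO. A WT-only peak (72133040 to 72133258, position 39.7%) and a KO-only peak (72133276 to 72133468, position 37.8%), both about 21 kb upstream, were 17 bp apart. The KO-only peak at 72110871 to 72111063, position 52.8%, had its midpoint 234 bp downstream of the middle start listed by RefSeq. This peak lay 926 bp inside the gene end and 637 bp from the WT peak at the outer start. It was the only one of 6 KO peaks within 1 kb of an end of these genes that was not shared, and all 5 such WT peaks were shared. Over both whole lists, 14.3% of KO and 13.6% of WT peaks that near to a gene end were genotype-specific, so these counts do not set the 5 genes apart. The third KO-only peak, 72097136 to 72097328, stood at 51.5% and lay 943 bp from a WT peak. Of the WT-only peaks, one at 72100010 to 72100228 (position 77.3%) lay 1605 bp from a KO peak. The other two stood late, at 91.1% and 92.5% of the WT list, where 70.7% of peaks were WT-only, and lay 222578 and 200681 bp from any KO peak. The second of them, 71896236 to 71896454, had its midpoint 249 bp upstream of the start inside Tcf12 shown above.

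**Figure D4:**
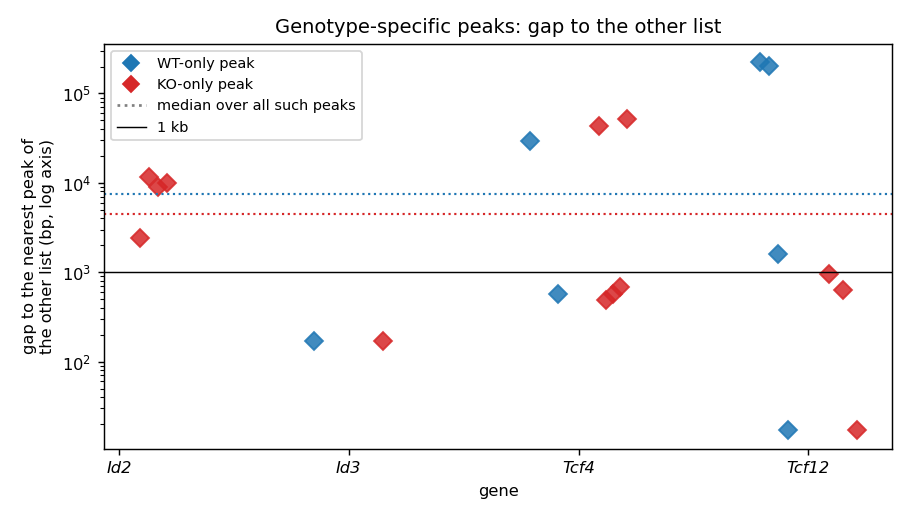
Gap from each WT-only (blue) or KO-only (red) peak of Id2, Id3, Tcf4 and Tcf12 to the nearest peak of the other list, in bp on a log axis, with dotted lines at the medians over all such peaks (7438 bp for WT-only, 4439 bp for KO-only) and a solid line at 1 kb. All 4 Id2 peaks lie above 1 kb, and 6 of the 8 KO-only peaks of Tcf4 and Tcf12 lie below it.

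At the E protein genes as a group, 6 of 8 KO-only peaks lay within 1 kb of a WT peak, against 34.2% of all KO-only peaks. For the WT-only peaks it was 2 of 6, against 25.1% of all WT-only peaks. Beside 9 shared peaks the E protein genes held 8 KO-only and 6 WT-only ones, and beside 8 shared peaks the Id genes held 5 and 1. By the 100 kb rule, the E protein genes kept 2 KO-only peaks and 1 that was WT-only in the first 50% of the rows. The Id genes kept 4 and 1 there. Across the blocks of these rows, the KO-only share of all KO peaks rose from 4.06% to 22.3%. The WT-only share of all WT peaks rose from 3.37% to 20.3%. Over all their peaks, shared ones included, the E protein genes stood at a median position of 62.5% in WT and 52.8% in KO, and the Id genes at 37.3% and 46.1%. These medians cover different peaks in each list, so they do not show that sites moved. Over shared pairs, the median KO minus WT position was 5.63 points at Tcf3, 0.81 at Tcf12 and -6.80 at Id3. It was 1.24 at Tcf4 and 1.82 at Id2, against 2.59 over all shared pairs of the lists. With no limit on distance the median was 0.069 at Tcf4 and -1.15 at Id2, so its sign at Id2 changed with the limit.

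**Figure D5:**
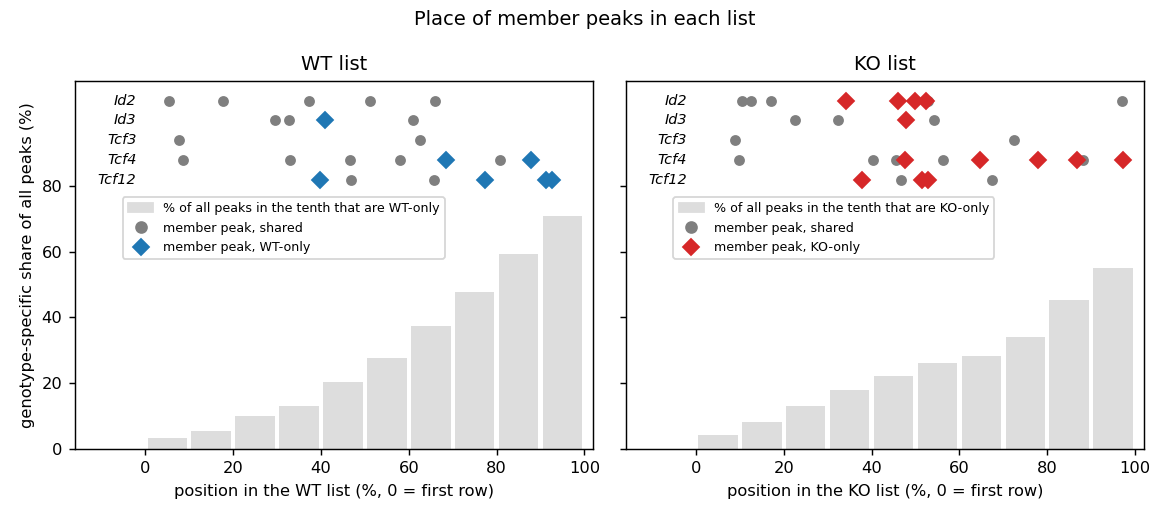
Position of every peak of the 5 genes in the WT list (left) and KO list (right) in % of rows, as grey circles (shared) and coloured diamonds (genotype-specific), over bars that give the genotype-specific percentage of all peaks in each of 10 equal blocks of rows. The bars rise from 3.37% to 70.7% in WT and from 4.06% to 55.1% in KO, and the 4 KO-only peaks of Id2 stand between 34.2% and 52.5%.

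Other genes around the Id and E proteins, 27 in all, were counted by the same rule, and 24 of them had a peak. KO-only peaks were more numerous at 6 genes, WT-only peaks at 8, and the numbers were equal at 13. The equal ones include Id4, Runx1t1 and Ptcra, which had no peak. Over all genes with a peak, 20.2% had more KO-only and 26.8% more WT-only peaks. The 27 related genes held 56 shared peaks, 24 WT-only ones and 22 KO-only ones. The last were 47.8% of the genotype-specific peaks (exact 95% interval 32.9 to 63.1%). The share was 45.2% over all genes with a peak. The median difference per gene was 0 there and in the list of 27, which counts the genes without a peak. Of the other Id genes, Id1 had 1 shared peak and Id4 none. Among the class II helix-loop-helix partners of E proteins, Tal1, Tal2, Lyl1 and Ascl2 each had 1 peak that was WT-only and no KO-only peak. Msc had 0 and 1, so each of these genes differed by 1 peak, beside the shares of 20.2% and 26.8% above. Of the corepressor genes, Cbfa2t3 had 1 KO-only peak, Cbfa2t2 had 1 shared peak and Runx1t1 had none.

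Egr2, one of the early response factors that induce Id3, had 2 peaks that were WT-only and none that was KO-only, beside 5 shared ones. Smad3, a mediator of TGF-beta signals, had 4 and 6, and Egr1 had 3 shared peaks and no other. Among 13 genes known as targets of E proteins in lymphocytes, 3 had more KO-only and 3 more WT-only peaks. Of all genes with a peak, 20.2% and 26.8% did. Socs1, an inhibitor of cytokine signals, had 2 peaks that were KO-only and none that was WT-only, and Notch1, a receptor of T lineage commitment, had 3 and 1. Cxcr5, the follicular homing receptor, had 0 KO-only and 2 WT-only peaks beside 5 shared ones. The lineage factor gene Gata3 had 1 and 3. Rag1, Rag2, Cd4, Il7r and Zbtb16 had shared peaks only. No difference in this group exceeded 2 peaks.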

How the data were processed

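ATAC-seq was run on 6 samples, 3 per genotype, and per the labels each group has 1 peak list for its 3 samples. Per the submitters' processing notes, the build was mm10 and the tools were HOMER 4.10.1, deepTools, HISAT2 2.1.0 and SAMtools 1.3, beside cutadapt 1.12, Trim Galore 0.4.2 and FastQC. The sources used here do not give which tool did what, the peak threshold or any shift of reads. The authors deposited a constant score of 1 for all peaks, which carries no height.

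Overlaps, gaps, gene assignments, row positions and motif matches were computed with pandas 2.3.3, scipy 1.17.1 and numpy 2.4.6 in Python 3.11.15, with figures from matplotlib 3.10.9. The overlap and assignment code was tested on 800 simulated peaks against bedtools and a plain loop, with 0 differences. A peak inside overlapping genes counted for each. Start sites and promoter sequences came from a RefSeq table, matched by symbol for 4 of the 5 genes, and no genome sequence was used. No test across replicates was possible, so no p-value is given.

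The members and the list of 27 related genes were chosen with earlier results of these data known. A further gene of that list is not reported here. The rule for names took the 5 genes, their gene-end peaks, all genotype-specific peaks of Id2 and Id3, up to 2 of the earliest per list and E protein gene, and up to 4 related genes on each side whose counts differed by 2 peaks or more. Other peaks and genes were named after their values were seen. Alternatives were other overlap rules, parts of the lists and other assignments.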

Additional observations from a re-analysis of the deposited data

How the results depend on the processing

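With 1 list per group and no heights, neither the precision nor the effect of leaving out a sample could be measured. No paired analysis was possible because the lists hold no values per replicate. Of 80 values under 8 other settings, 59 stayed within 1.5 times their size (for differences, exactly equal), 21 moved and 0 turned in direction. Only the differences at Id2, Tcf4 and Tcf12 could turn, since a count cannot and those at Id3 and Tcf3 were 0 in the report. Shortening the WT list to the number of KO rows removed no peak of the 5 genes, so no value could move there. WT-only peaks at the Id genes, 1 in the report, numbered 3 with a reciprocal overlap of at least 50%, 0 with peaks within 500 bp counted as shared, and 3 with every peak within 50 kb. KO-only peaks at the Id genes, 5 in the report, numbered 2 with a reach of 10 kb, and the shared peaks of all 5 genes then numbered 10 in place of 17. In the first 50% of each list the E protein genes kept 2 peaks that were KO-only and 1 that was WT-only, with 10 shared peaks over all 5 genes. With no limit on the distance, a setting chosen after seeing the data, the Id genes held 9 KO-only peaks against 7 WT-only ones, and shared peaks numbered 31. The difference at Id2, 4 in the report, was 3 in the first 50% of each list, 2 within 50 kb, 2 with no limit and 1 with a reach of 10 kb. The change with the reach follows from the place of the peaks.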
